A study of Mus musculus with 2 samples.

Results

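Skeletal muscle cells were a small group among the cells of 2 EMT6 tumor libraries: 88 of 21985 kept cells. They were chosen by their measured RNA. A cell was counted as muscle when it held at least 200 genes, under 20% of its unique molecular identifiers (UMIs, each standing for 1 captured transcript) from mitochondrial genes, and at least 1% of its UMIs from 6 muscle genes, namely Mylpf, Acta1, Tnnt3, Ckm, Myh4 and Tnnc2. The levels of these 6 genes, and of every gene that runs with them in the same cells, are therefore a description of what was selected and carry no test.

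EMT6 is a mouse mammary carcinoma line, injected subcutaneously at 200000 cells per animal into BALB/c mice of 5 to 6 weeks. Mice of the Olaparib + LLY-283 group received olaparib, an inhibitor of the DNA repair enzyme PARP, at 50 mg/kg every day, and LLY-283, an inhibitor of the arginine methyltransferase PRMT5, at 50 mg/kg for 3 days on and 4 days off. Mice of the Combo group received both drugs and 200 µg of anti-PD-1, a T cell checkpoint antibody, every 3 days. Tumors of 3 mice were pooled into 1 library per group, and the libraries held 147214934 and 162522700 UMIs in 16115 and 7542 barcodes. With 1 library per group there is no replicate, no untreated library among the samples, and no test between the groups. The intervals below are 95% exact intervals that cover counting error only.

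Skeletal muscle fibres are long cells with many nuclei, packed with sarcomeres of actin and myosin. Each fibre type is known by its myosin heavy chain: Myh7 in slow oxidative fibres, Myh2 in fast oxidative fibres, Myh1 in intermediate fast fibres, and Myh4 in the fastest, glycolytic fibres, with matching fast or slow forms of troponin, myosin light chain and the calcium pump. Intact adult fibres are too large for droplet capture, and the subcutaneous site lies next to thin fast muscle sheets of the skin and body wall.

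The Olaparib + LLY-283 library held 35 muscle cells among 16029 kept cells, a share of 0.218% [0.152 to 0.304]. The Combo library held 53 among 5956, a share of 0.890% [0.667 to 1.16]. The 2 shares lie apart by more than their counting error, and how much muscle came with each dissected tumor was not measured. The filter left out 86 Olaparib + LLY-283 barcodes and 1586 Combo barcodes, so the shares have different denominators. No muscle barcode occurred in both libraries, while 39 barcodes of all kinds did.

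The promoters of 3 selecting genes are shown: that of Acta1, the most abundant of the 6, that of Myh4, the marker of the fibre type, and that of Mylpf, the regulatory light chain of fast muscle. They are the 250 bases before the RefSeq start on GRCm38.p6, read on the strand of the gene, with capitals for 3 motifs: the E-box CANNTG, bound by the myogenic factors and a palindrome on both strands, the CArG box, bound by serum response factor, and the TATA box TATAAA on either strand.
Acta1, chr8:123894776-123895025, minus strand: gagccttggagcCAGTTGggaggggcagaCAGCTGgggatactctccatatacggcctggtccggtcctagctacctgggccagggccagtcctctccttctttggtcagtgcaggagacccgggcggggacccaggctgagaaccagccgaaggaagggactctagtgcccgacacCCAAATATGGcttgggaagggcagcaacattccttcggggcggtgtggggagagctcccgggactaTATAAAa
Myh4, chr11:67237562-67237811, plus strand: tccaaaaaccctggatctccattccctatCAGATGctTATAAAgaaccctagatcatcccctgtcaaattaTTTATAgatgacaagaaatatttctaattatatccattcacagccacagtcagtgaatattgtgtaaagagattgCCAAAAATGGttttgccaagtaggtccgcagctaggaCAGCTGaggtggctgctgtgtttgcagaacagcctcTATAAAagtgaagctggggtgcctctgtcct
Mylpf, chr7:127211358-127211607, plus strand: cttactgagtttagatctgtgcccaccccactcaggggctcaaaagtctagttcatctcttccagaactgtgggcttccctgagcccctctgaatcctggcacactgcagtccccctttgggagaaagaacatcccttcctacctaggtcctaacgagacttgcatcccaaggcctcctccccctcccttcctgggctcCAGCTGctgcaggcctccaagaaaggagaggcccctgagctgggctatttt
Of the 6 muscle genes, 5 matched a promoter by symbol. An E-box was found in 5 of these 5, a CArG box in 2 (Acta1 and Myh4) and a TATA box in the same 2. Among all 32841 promoters of this length, 66.2% held an E-box, 1.47% a CArG box and 12.4% a TATA box. These matches describe the letters of the window and say nothing of what was bound.

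Of the 6 muscle genes, all but Myh4 were found in nearly every muscle cell. Acta1 (ENSMUSG00000031972; chromosome 8, 123891769 to 123894751), the skeletal alpha-actin of the thin filament, made up 0.436% of the UMIs in the lowest, 5.28% in the median and 11.3% in the highest of the 35 Olaparib + LLY-283 cells. In the 53 Combo cells it ran from 0.721% through 4.88% to 14.1%. Acta1, Mylpf, Tnnt3 and Tnnc2 were found in all 88 cells, Ckm in 35 and 52, and Myh4 in 28 and 31. The 6 genes together made up 12.01% of a cell's UMIs in the median of the Olaparib + LLY-283 library, with a range of 1.08% to 22.9%, and 10.8% in the median of the Combo library, with a range of 2.07% to 24.0%. The 2 ranges overlap over most of their length, but cells under 2% occurred only in the Olaparib + LLY-283 library (5 of 35 against 0 of 53).

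The threshold of 1% fell in a sparse region. The lowest members stood at 1.08% (Olaparib + LLY-283) and 2.07% (Combo), and the highest cells left outside at 0.728% and 0.897%. Of the other cells, 13.3% and 34.0% held at least 1 UMI of the 6 genes, and their 99th percentile was 0.0586% and 0.157%. The muscle cells held 64.7% and 75.03% of all UMIs of the 6 genes in the libraries, although they held 0.0409% and 0.0557% of the UMIs of kept cells.

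**Figure D1:**
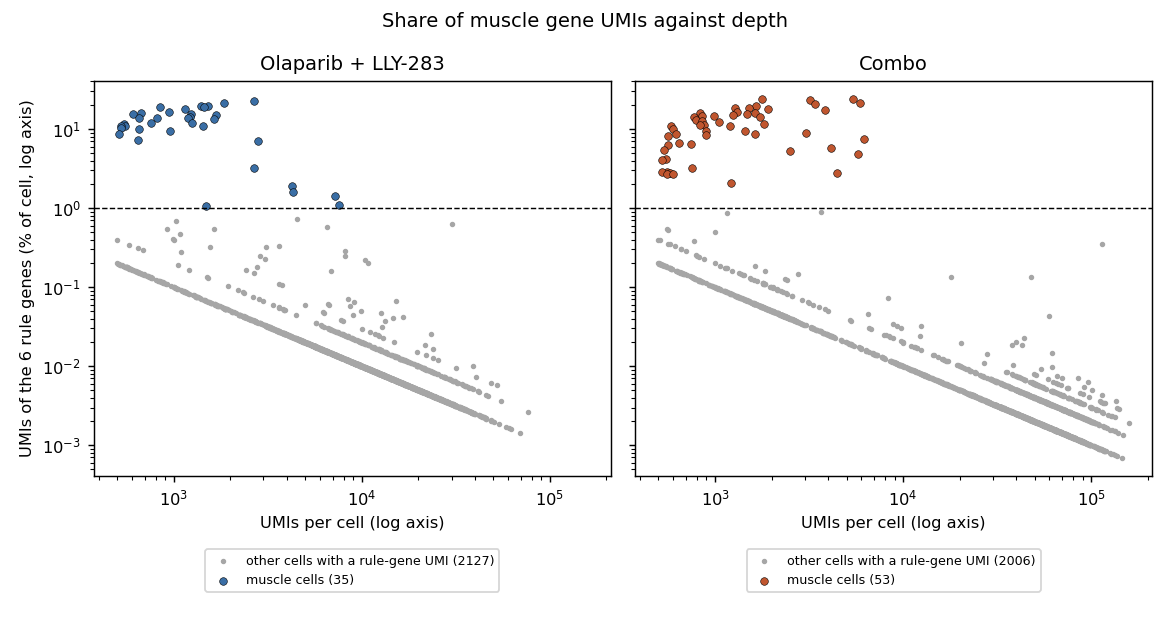
Share of UMIs from the 6 muscle genes (log axis) against UMIs per cell (log axis) in both libraries. Colored points are the 35 and 53 muscle cells, gray points the 2127 and 2006 other cells with at least 1 such UMI, and the dashed line marks 1%. Most muscle cells sit between 5% and 24.0%, and no gray point is above 0.897%.

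The myosin heavy chain UMIs of the muscle cells were almost all of the fast glycolytic form. Myh4 (ENSMUSG00000057003; chromosome 11, 67238029 to 67260446), the heavy chain of type IIb fibres, gave 135 of the 146 heavy chain UMIs in the muscle cells of the Olaparib + LLY-283 library, or 92.5% [86.9 to 96.2]. In the Combo library it gave 199 of 215, or 92.6% [88.2 to 95.7]. The 2 shares differ by less than their counting error. Myh1, the type IIx chain, gave 11 UMIs in each library, 7.53% [3.82 to 13.1] and 5.12% [2.58 to 8.97]. Myh2, the type IIa chain, gave 0 UMIs in the Olaparib + LLY-283 cells and 5 in the Combo cells, the latter spread over 3 cells. Myh4 was one of the 6 selecting genes, but leaving it out of the rule selected the same number of cells and gave the same shares.

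Myh7, the slow chain, was listed at 0 UMIs in every barcode of both libraries. Its exons share no base with another gene of the same strand in the annotation, and the exact interval of its share of heavy chain UMIs reaches 2.49% and 1.70%. The developmental chains Myh3 and Myh8 were also at 0 in all 88 cells. Heavy chain UMIs are sparse per cell, so a cell can be typed only where it has several. Of the 21 cells in each library with 3 or more, Myh4 led in 19 and 20, Myh1 in 2 and 0, and Myh2 in 0 and 1.

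For the troponins and the regulatory light chain, the fast form outweighed the slow form at higher counts. Fast Tnnt3 had 628 and 1266 UMIs against 0 and 20 of slow Tnnt1, that is 100% [99.4 to 100] and 98.4% [97.6 to 99.05] fast. Fast Tnni2, an inhibitory troponin, had 432 and 1011 UMIs against 0 and 0 of slow Tnni1. Fast Tnnc2, the calcium-binding troponin, had 646 and 1372 against 0 and 1 of Tnnc1. Mylpf, the fast regulatory light chain, had 853 and 1642 against 0 and 0 of Myl2, and the calcium pump Atp2a1 had 68 and 178 against 0 and 5 of Atp2a2. In the other cells the pump was the reverse, with Atp2a1 at 0.291% and 0.434% of the 2 genes, but Tnni2 (92.6% and 95.9%) and Mylpf (95.8% and 95.4%) outweighed the slow form there too. Tnnt3, Tnnc2, Mylpf and Myh4 belong to the selecting genes, while Tnni2, Atp2a1 and Actn3 do not. The alpha-actinin pair leaned the same way, with Actn3 of fast fibres at 93.5% [85.5 to 97.9] and 85.1% [79.5 to 89.8] of its sum with Actn2, but its few UMIs in other cells gave 93.4% and 70.1%.

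A search for slow fibres that fast genes would have missed found none. Adding Myh7, Myl2, Tnnt1, Tnni1 and Tnnc1 to the rule brought in 0 further cells, and no kept cell of either library had 1% of its UMIs from these 5 genes. The 10 slow fibre genes summed to 249 CPM (1000000 times a gene's UMIs over all UMIs of the group of cells) in the Olaparib + LLY-283 muscle cells and 590 in the Combo muscle cells, against 313 and 346 CPM in other cells. The 12 fast genes outside the rule summed to 25415 and 36747 CPM, against 267 and 299 in other cells. The order of the 2 libraries turned when the 5 Olaparib + LLY-283 cells with under 2% of their UMIs from the 6 muscle genes were left out, a choice made after seeing the data, and the first sum was then 40377 CPM. The 3′ kit counts a transcript end whatever the transcript's length, so levels are compared between genes without a length correction.

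**Figure D2:**
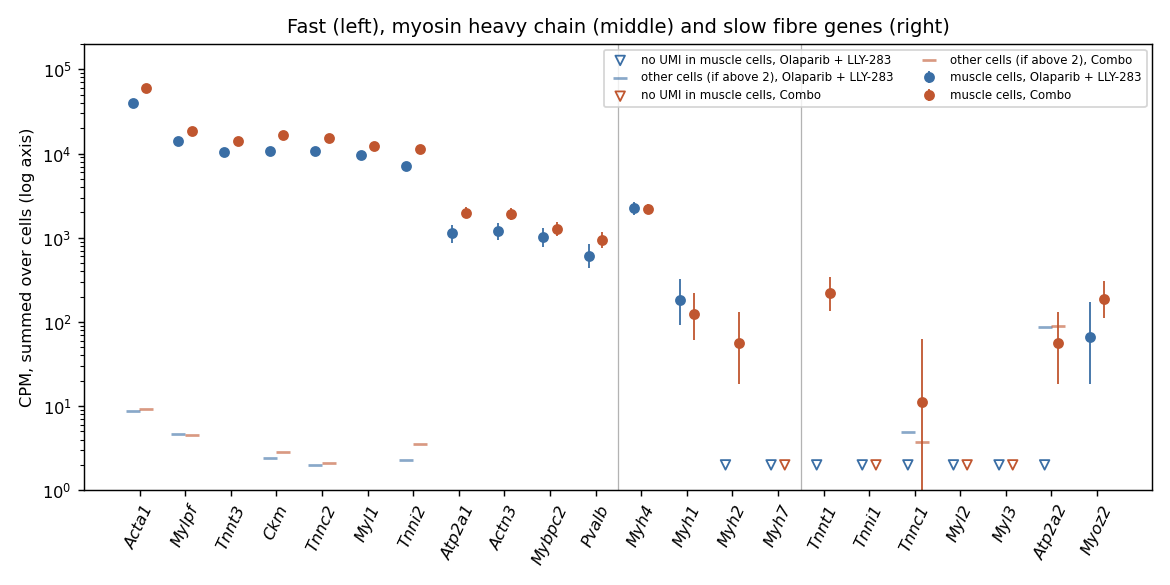
Summed CPM (log axis) of fast genes, myosin heavy chains and slow genes in the muscle cells of each library, with 95% Poisson intervals that cover counting error. Bars mark the level in other cells where it is above 2 CPM and open triangles mark genes without a UMI in the muscle cells. The 11 genes on the left, of which Acta1 and Ckm are not limited to fast fibres, lie between 614 and 59392 CPM, while Tnni1, Myl2, Myl3 and Myh7 have no UMI in either set of muscle cells.

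Beyond the selecting genes, the muscle cells carried other genes of fast fibres. Among 1006 genes with 20 or more UMIs in the 88 cells, 116 were 4-fold or more higher in muscle cells than in other cells in both libraries (11.5%), and 0 were 4-fold or more lower in both (0%), with 1 CPM added to each level. A gene could reach this minimum through the muscle cells alone, and the rule selected on these same counts, so nothing is read from the counts. Of the 20 highest ratios among genes found in at least 20% of muscle cells, 14 belonged to genes outside the rule. Myl1, an essential light chain of fast fibres, was 4691-fold higher over both libraries, Des, the intermediate filament desmin, 3254-fold, and Sln (ENSMUSG00000042045), sarcolipin, a small inhibitor of the calcium pump, 2620-fold. Tnni2 was 2450-fold higher and Tcap, the titin cap, 1255-fold. Car3, a carbonic anhydrase of muscle and fat, was 1879-fold higher. Pvalb, parvalbumin, the calcium buffer of fast fibres, was 710-fold higher and was found in 17 and 23 cells. The 1 CPM added sets the size and order of these ratios where other cells are near 0: without it Pvalb was 3928-fold and 6930-fold higher and Myl1 6512-fold and 9341-fold.

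The sarcomere list, shared by fibre types, had 16 of its 17 genes over the minimum and 15 past 4-fold, beside 11.5% of all 1006 genes. This count and those of the next lists rest on genes that could pass the minimum through the muscle cells, and nothing is read from them. Tpm1, a tropomyosin that many cells use, stood at 10541 and 11406 CPM in muscle cells, against 1030 and 1012 in other cells. Ttn, titin, and Neb, nebulin, the giant proteins that span the sarcomere, were at 415 CPM each in the Olaparib + LLY-283 cells and at 813 and 769 CPM in the Combo cells. All 5 calcium handling genes over the minimum, of 12 listed, were past 4-fold (11.5% of all genes). Ryr1, the calcium release channel, stood at 299 and 212 CPM, and Trdn, triadin, which holds it to its store, at 498 and 624. Scn4a and Clcn1, the sodium and chloride channels of the muscle membrane, had 0 UMIs in all 88 cells.

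Of the 16 energy genes, 13 passed the minimum and 10 were past 4-fold (11.5% of all genes). Aldoa, aldolase, stood at 6159 and 11016 CPM, against 1483 and 1516 in other cells. Together 5 glycolysis genes (Aldoa, Eno3, Pgam2, Gapdh and Ldha) made up 2.37% and 2.46% of UMIs in the median muscle cell. The other cells' median was 0.662% and 0.597%, and 32 of 35 and 49 of 53 muscle cells were at or above it. Eno3 and Pgam2 are also in the list of fast fibre genes. The general enolase Eno1, with 91785 and 121531 UMIs in other cells against 38586 and 46974 of Eno3, was not counted. The choice of genes thus favors muscle cells, and no higher glycolysis is read from it. Cox6a2 and Cox8b, the muscle forms of cytochrome oxidase subunits, were at 930 and 714 CPM in the Olaparib + LLY-283 cells and at 1526 and 1203 in the Combo cells. Cox6a2 gave 93.3% and 95.1% of its sum with the general form Cox6a1, against 0.268% and 0.449% in other cells. Cox7a1, another muscle form, was the minority of its sum with Cox7a2, at 23.1% and 37.0%, against 0.236% and 0.346% in other cells. The oxidative muscle genes Mb, myoglobin, and Fabp3, a fatty acid carrier, were lower, at 299 and 379 CPM and at 216 and 267 CPM.

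The 13 listed genes of satellite cells and myoblasts were low in sum, at 365 CPM [229 to 553] and 613 [462 to 797], yet above the 128 and 98.4 CPM of other cells. Myf6 gave 10 of the 22 and 30 of the 55 UMIs. Pax7 and Myf5, which mark satellite cells, and Mymk and Mymx, which drive myoblast fusion, had 0 UMIs in all 88 cells. Myod1 had 2 UMIs in the Olaparib + LLY-283 cells and 1 in the Combo cells. Myf6, the myogenic factor that mature fibres keep, had 10 and 30 UMIs in 6 and 14 cells. Trim63 and Fbxo32, ubiquitin ligases of muscle wasting, were at 83.0 and 66.4 CPM in the Olaparib + LLY-283 cells and at 145 and 100 in the Combo cells. These levels rest on few UMIs, and nothing is read from their difference. The metallothioneins Mt1 and Mt2, small metal-binding proteins, made up 1.19% and 0.878% of UMIs in the median muscle cell, against 0.468% and 0.245% in the median other cell.

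Among the Combo cells, 4 stood apart by their Myl4 UMIs. They were singled out after their values were seen, as the only muscle cells with 3 or more UMIs of Myl4 (ENSMUSG00000061086; chromosome 11, 104550663 to 104595753), an essential light chain of embryonic muscle and of the atrium. They held 10, 8, 7 and 4 Myl4 UMIs, while the other 49 Combo cells held 2 together and the 35 Olaparib + LLY-283 cells 0. Of 5903 other Combo cells, 1 reached 3. Tnnt1, the slow troponin that embryonic muscle also uses, had 19 of its 20 Combo UMIs in these cells (12 and 7 in 2 of them). Myog, myogenin, which switches on the muscle programme in differentiating myoblasts, had 9 of its 10 Combo UMIs in 1 of them. None of the 4 had a Myh4 UMI, and their heavy chain UMIs were 3 of Myh2 and 2 of Myh1, all in 1 cell. Myh4 was found in 31 of the 53 Combo cells, so it was missing from other Combo cells too.

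The 4 cells held 1210 to 6214 UMIs, and 3 of them were among the deeper muscle cells. Summed, Myl4 stood at 1648 CPM [1104 to 2366], against 27.7 [3.36 to 100] in the other 49. Sln was at 13011 CPM against 4101, and Des at 13239 against 6332. The sums of adult muscle genes were lower: Ckm at 2500 CPM [1817 to 3356] against 19992 [18974 to 21051], Mylpf at 5000 against 21530, and Acta1 at 32386 against 65977. These are selecting genes, and the 4 cells held 2.77%, 7.39%, 2.07% and 4.90% of their UMIs from the 6 muscle genes. The 11 Combo muscle cells between 2% and 5%, which include some of the 4, had Acta1 at 23356 CPM. Cells of like share were not compared, so nothing is read from the lower sums. The deepest of the 4, with 7.39% of its UMIs from the 6 muscle genes, held 112 of their 135 Myl1 UMIs. Pvalb had 0 UMIs against 1178 CPM, and Myh4 was at least 16.2-fold lower against a floor of 3 UMIs over the 4 cells. Myh4 is also a selecting gene, and Pvalb was found in 23 of the 53 Combo cells. The 4 cells were not alike: they held 137, 88, 4 and 0 Sln UMIs, so that the sum came from a pair of them. The 137 were in the cell with Myog, which also held 13 UMIs of Cdkn1a, a cell cycle inhibitor.

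**Figure D3:**
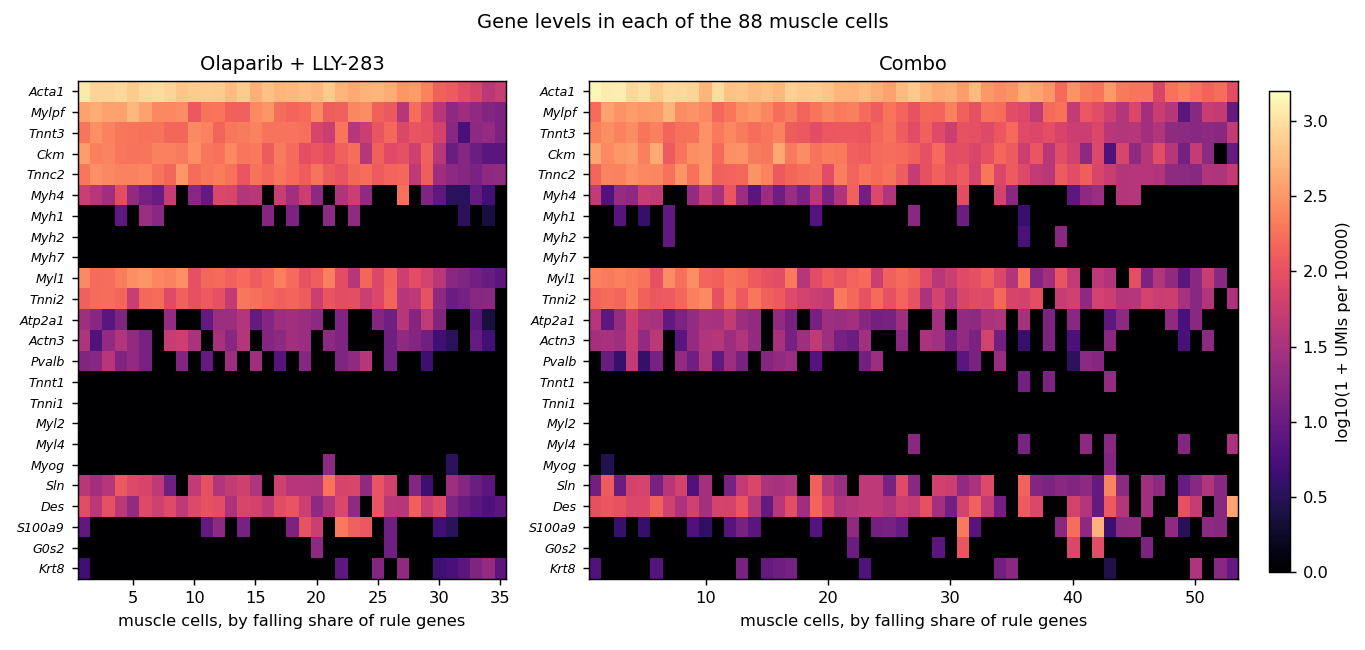
Levels of 24 genes in each of the 88 muscle cells, as log10(1 + UMIs per 10000), with cells ordered from the highest to the lowest share of the 6 muscle genes. Acta1, Mylpf, Tnnt3, Ckm, Tnnc2, Myl1 and Tnni2 fill nearly all columns, Myh7, Tnni1 and Myl2 are empty, and Myl4 appears in 6 Combo columns.

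Muscle cells were shallow. In the Olaparib + LLY-283 library they held 512 UMIs in the lowest, 1218 in the median and 7568 in the highest cell, against a median of 7423 in other cells, which is 6.09-fold more. In the Combo library they held 520, 1045 and 6214, against a median of 14930, or 14.3-fold more. All 53 Combo muscle cells and 34 of the 35 Olaparib + LLY-283 muscle cells were below the median of the other cells in their library. The median number of genes was 603 and 598, against 2545 and 3685. The matrices hold no barcode under 500 UMIs, and the lower quartiles of the muscle cells were 659 and 642 UMIs, so shallower muscle barcodes were not seen here. With the threshold at 10% in place of 1%, the median muscle cell held 0.154 and 0.0888 times the UMIs of the median other cell. Without the mitochondrial limit the Combo ratio was 0.276 in place of 0.0700. The muscle median stayed at 1045 UMIs, so the ratio moved because the other cells' median fell. The limit had left out 1582 Combo barcodes.

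The median mitochondrial share of muscle cells was somewhat lower than that of other cells, whose medians lay within the quartiles of the muscle cells (0.260% to 1.61% and 0.482% to 3.02%). It was 0.828% in the median muscle cell of the Olaparib + LLY-283 library, against 1.11%, and 0.861% in that of the Combo library, against 1.20%. The muscle cells ran from 0% to 19.7% and from 0.0369% to 13.4%, so the groups overlap, with 21 of 35 and 32 of 53 muscle cells below the other cells' median. Other cells of like depth, those within the quartiles of the UMIs of muscle cells, had medians of 1.76% and 1.27%, a comparison added after seeing the data. Shares of 5% or more occurred in 6 of 35 (17.1%) and 7 of 53 (13.2%) muscle cells, against 3.63% and 6.52% of other cells, and the summed level was higher in muscle cells, at 18393 and 20161 CPM against 11362 and 12677.

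The make-up of the mitochondrial RNA differed in the summed counts. The ribosomal RNAs mt-Rnr1 and mt-Rnr2 gave 62.7% and 80.0% of the mitochondrial UMIs of muscle cells, against 33.8% and 28.6% in other cells. mt-Rnr1 was 4.24-fold and 6.06-fold higher in CPM in muscle cells, with 28.8% and 29.4% of its UMIs in 1 cell of each library. The median share of UMIs from both ribosomal RNAs was 0.254% and 0.505% in muscle cells, against 0.370% and 0.427% in other cells. In other cells of like depth this median was higher than in muscle cells, at 1.04% and 0.846%. mt-Cytb, a subunit of complex III, stood at 3254 and 1470 CPM, against 3116 and 3554, and mt-Nd1, of complex I, at 1179 and 679 CPM, against 1706 and 2005. Per cell, ribosomal RNA gave 64.8% and 60.0% of mitochondrial UMIs in the median muscle cell, 34.7% and 36.8% in the median other cell, and 58.3% and 69.7% in the median other cell of like depth. The median share of the other mitochondrial genes was 0.216% and 0.337% in muscle cells, against 0.693% and 0.730% in other cells and 0.663% and 0.380% in those of like depth. The authors' counts of mitochondrial messages are uneven in all cells: in the other Olaparib + LLY-283 cells mt-Cytb stood at 3116 CPM but mt-Co2 at 7.66 and mt-Co3 at 11.7. The mitochondrial share is therefore a share of the genes that were counted, and the reason was not tested.

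Malat1, a long RNA kept in the nucleus, was low in muscle cells. It made up 0% of UMIs in the lowest, 0.168% in the median and 9.56% in the highest cell of the Olaparib + LLY-283 library, against a median of 1.13% in other cells, and 30 of 35 muscle cells lay below that median. In the Combo library it ran from 0.0184% through 0.337% to 2.33%, against a median of 1.28%, and 49 of 53 lay below. Other cells of like depth had medians of 1.82% and 2.57%. After thinning every cell to 500 UMIs, so that depth was equal, the share with a Malat1 UMI was 60.1% and 77.8% of muscle cells. In other cells it was 92.7% and 92.3%. The thinned shares of muscle cells are not whole numbers of cells. Without thinning it was found in 26 of 35 and 53 of 53 muscle cells. Whether a barcode held a whole cell, a piece of a fibre or a nucleus with its surroundings cannot be told apart from these counts.

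**Figure D4:**
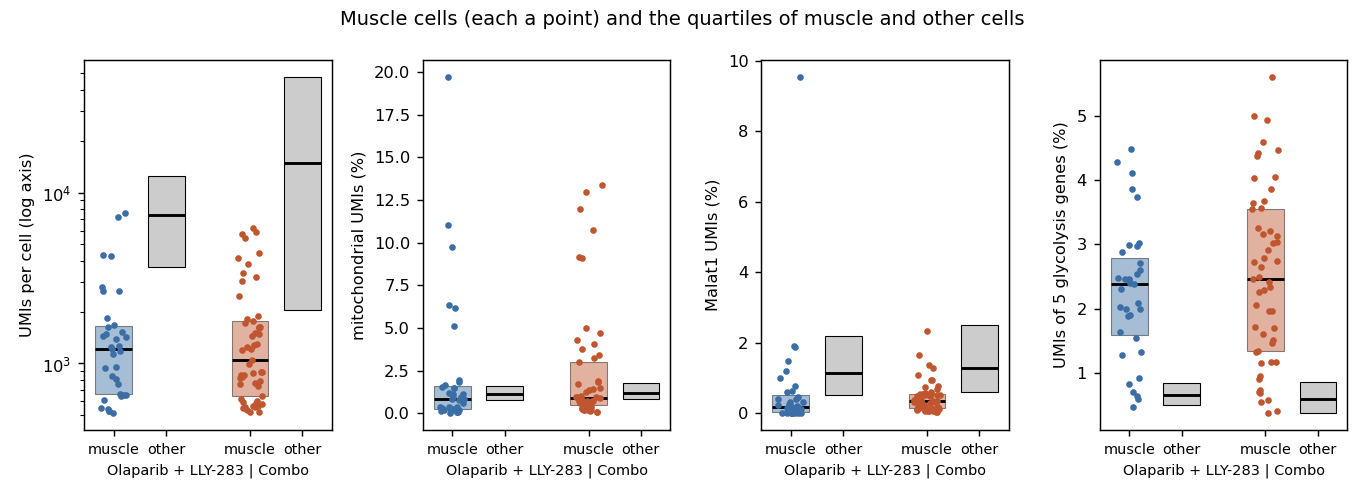
UMIs per cell (log axis) and the percent of UMIs from mitochondrial genes, Malat1 and 5 glycolysis genes in muscle and other cells of both libraries. Points are single muscle cells, boxes span the quartiles of each set and black lines mark the median. Muscle cells are shallower, lower in Malat1 and higher in the 5 chosen glycolysis genes, of which Eno3 and Pgam2 are also fast fibre genes. Mitochondrial shares of muscle cells overlap those of other cells and reach 19.7%.

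Markers of other cells were carried by some muscle cells. S100a8, S100a9 and 5 other neutrophil genes had a UMI in 15 of 35 and 38 of 53 cells and summed to 1876 and 6394 CPM, against 550 and 2020 in the other cells of each library. Without the 8 cells in which they passed 1% of UMIs, a choice made after seeing the data, the sums were 411 [261 to 617] and 999 [792 to 1243] CPM, the first with an interval that holds the level of the other cells and the second below it. S100a9 was the most abundant, with 69 and 277 UMIs, and Il1r2 was at 0 in both sets. The 8 cells were 5 Olaparib + LLY-283 cells and 3 Combo cells, and in 1 Combo cell the neutrophil genes, with 10.3%, were above the 6 muscle genes, at 5.34%. Of the 5 tumor genes, Krt8 and Krt18 gave all UMIs, in 10 and 16 cells, at 681 and 189 CPM in sum against 871 and 807 in other cells. Epcam, Krt19 and Cldn4 were at 0.

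The macrophage list summed to 183 and 368 CPM in muscle cells, against 686 and 1517, with Lyz2 the most abundant. The fibroblast list summed to 465 and 356 CPM, against 1299 and 1364. T and NK cell genes and erythroid genes had 0 UMIs in all 88 cells, and endothelial, keratinocyte and Schwann cell genes had 1, 2 and 1 UMIs in the Olaparib + LLY-283 cells and 0 in the Combo cells. What part these cells' RNA had in the values of the muscle cells was not tested. Of the smooth muscle list, Des gave 259 of 303 and 690 of 716 UMIs and is itself a skeletal muscle gene, Acta2 gave 43 and 24, and Myh11, Cnn1 and Rgs5 were at 0. Of the adipocyte list only Car3 was found, while Adipoq, Plin1, Cfd and Fabp4 were at 0. Of the cardiac list, Myh6, Tnni3, Nppa, Nppb, Myl7 and Ryr2 were at 0, and Myl4 gave 31 of its 36 Combo UMIs.

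The 5 Olaparib + LLY-283 cells under 2% were of another make-up than the rest. They held a median of 4323 UMIs and 1.01% Malat1, and 32 of the 37 Krt8 UMIs of that library's muscle cells. The doublet caller Scrublet, which compares cells with artificial mixtures of 2 cells, marked 5 of the 35 muscle cells, with a median of 1.41% muscle genes and at least 1 keratin UMI in each, and 0 of the 53 Combo muscle cells. Of these 5 called cells, 4 were among the 5 under 2%, and the other held 10.9% muscle genes. It marked 14.7% and 0.789% of all kept cells, so the calls are not on 1 footing in the libraries. Muscle cells called as doublets were kept.

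Muscle RNA also lay outside the muscle cells, and its make-up there differed for some of the genes. Acta1 made up 44.4% [42.5 to 46.2] of the muscle gene UMIs in the other Olaparib + LLY-283 cells and 44.9% [43.5 to 46.2] in its muscle cells. In the Combo library these were 44.4% [42.7 to 46.1] and 47.2% [46.3 to 48.1], with intervals apart. In the Olaparib + LLY-283 library Mylpf made up 23.6% [22.0 to 25.2] in other cells against 16.1% [15.2 to 17.2] in muscle cells, and Tnnt3 7.88% [6.92 to 8.92] against 11.9% [11.0 to 12.8]. In the Combo library Mylpf made up 21.5% against 14.5% and Tnnt3 8.72% against 11.2%. In the Combo library Myh1 had 110 UMIs in 92 other cells, 61.8% [54.2 to 69.0] of the heavy chain UMIs there, against 5.12% in the muscle cells. Those 92 cells held a median of 63690 UMIs against 14930 in all other Combo cells. A keratin UMI was found in 96.7% of them, against 72.4% of all other Combo cells, and one of Acta1 in 23. In the Olaparib + LLY-283 library 12 other cells held 12 Myh1 UMIs.

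Between the 2 sets of muscle cells, 414 genes had 50 or more UMIs over both, and levels were compared in CPM with 0.5 UMIs added to each count. In the Combo cells 28 genes were 2-fold or more higher (6.76%) and 35 were 2-fold or more lower (8.45%). None of the 6 selecting genes passed 2-fold in either direction, with log2 differences from -0.02 for Myh4 to 0.61 for Ckm and a median of 0.47. None of the 8 fast genes with enough UMIs did, with a median of 0.63. Over all 414 genes the median was -0.00. Without the 5 Olaparib + LLY-283 cells under 2%, the difference of Acta1 went from 0.59 to -0.06, and the sum of the 12 fast genes outside the rule was higher in the Olaparib + LLY-283 cells, at 40377 CPM [38309 to 42528] against 36747 [35503 to 38022].

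Genes higher in the Combo cells included muscle genes and genes that neutrophils carry. Csrp3, a stretch-linked protein of the sarcomere's edge, stood at 282 CPM [164 to 452] in the Olaparib + LLY-283 cells and 991 [796 to 1220] in the Combo cells, a log2 difference of 1.78. It was found in 10 of 35 and 24 of 53 cells, and among the other cells of the 2 libraries it differed by 1.35 in the same direction. Adssl1, an enzyme of the muscle purine cycle, stood at 116 and 512 CPM, a difference of 2.06, but at 0.0211% and 0.0362% by the mean of the cells' own shares, under 2-fold. Rrad, a small GTPase that restrains calcium channels, stood at 116 and 490 CPM, a difference of 1.99. In other cells Adssl1 and Rrad differed by 0.47 and 0.28. Of the sarcomere list 3 of 11 genes were higher and 0 lower, beside 6.76% and 8.45% of all 414 genes, with Smpx at 1.19 and Ankrd1 at 1.49. Sln, at 3121 and 5848 CPM, differed by 0.90, and by 0.39 without the 4 cells with Myl4, while its median share of UMIs was lower in the Combo cells, at 0.187% against 0.392%. Pygm, muscle glycogen phosphorylase, differed by 1.01. Without the 5 Olaparib + LLY-283 cells under 2%, Csrp3, Adssl1, Rrad and Ankrd1 differed by 1.01, 1.29, 1.96 and 0.96.

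G0s2, Srgn, Cxcl2, Il1b and Nfkbia, which neutrophils carry, had the largest or near largest differences, at 4.60, 2.71, 2.06, 2.04 and 2.15. They were concentrated in few cells. A single Combo cell held 78.8% of the Cxcl2 UMIs and 81.7% of those of Nfkbia, and without the top cell of each library the differences were 0.54 and -0.05, while Il1b, Srgn and G0s2 were at 1.69, 3.43 and 4.71. Without the 8 muscle cells in which neutrophil genes passed 1% of UMIs, a choice made after seeing the data, 369 genes had enough UMIs. Of these, 20 were higher and 39 lower. In that comparison Il1b went from 2.04 to -0.52, Cxcl2 from 2.06 to -0.52 and G0s2 from 4.60 to 0.71, from 1 and 3 UMIs. Srgn did not fall, at 3.18 from 0 and 6 UMIs, S100a8 stood at 1.72 against 1.70 with all cells, and S100a9 went from 1.42 to 0.57. Csrp3, Rrad and Adssl1 stood at 1.86, 2.05 and 2.16 in the same comparison. Among other cells of the 2 libraries, Il1b differed by 2.00 and G0s2 by 2.06 in the same direction.

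Gm42418, a transcript that overlaps ribosomal RNA sequence, was found in 34 of 35 and 53 of 53 muscle cells. It made up 0.196% of UMIs in the median Olaparib + LLY-283 cell and 0.882% in the median Combo cell, ranging to 1.09% and 2.99%. The summed levels were 1760 and 8376 CPM, a log2 difference of 2.25, and other cells of the libraries differed by 0.93 in the same direction.

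Krt8 had the lowest ratio of Combo to Olaparib + LLY-283 cells. Krt8 (ENSMUSG00000049382), a keratin of the tumor cells, stood at 614 CPM [432 to 847] in the Olaparib + LLY-283 cells and 156 [85.3 to 262] in the Combo cells, a log2 difference of -1.95. Ptms, Ly6e, Col1a2, Crip1 and Npc2 differed by -1.92, -1.77, -1.59, -1.56 and -1.47, and Prdx1, Vim, Actb and Acta2 by -1.44, -1.41, -1.41 and -1.40. Without the 5 Olaparib + LLY-283 cells under 2%, a choice made after seeing the data, 14 genes were higher and 5 lower, and Krt8 went from -1.95 to 0.05. Ptms, Ly6e, Col1a2 and Acta2 were then at -1.34, -1.10, -1.24 and -1.02, and Crip1, Npc2, Prdx1, Vim and Actb at -0.56, -0.89, -0.65, -0.47 and -0.37. By the mean of the cells' own shares, Vim was at 0.282% and 0.218% and Actb at 0.400% and 0.300%, under 2-fold. Krt8 (0.0293% and 0.0282%), Col1a2 (0.0646% and 0.0409%), Acta2 (0.0528% and 0.0355%), Npc2, Crip1 and Ly6e were under 2-fold by this measure too. Ptms (0.0563% and 0.0257%) and Prdx1 (0.149% and 0.0738%) were past it. Malat1 differed by -1.21, yet by -0.50 without the top cell of each library, while its median share of UMIs was higher in the Combo cells. Ribosomal protein genes passed 2-fold in 0 of 75, with a median of -0.05, and 2 of 7 mitochondrial genes were lower, beside 6.76% higher and 8.45% lower of all 414 genes, mt-Nd4 at -1.33 and mt-Cytb at -1.14. Without the top cell of each library these were -1.01 and -0.87, and without the 5 cells under 2% they were -0.77 and -0.63.

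**Figure D5:**
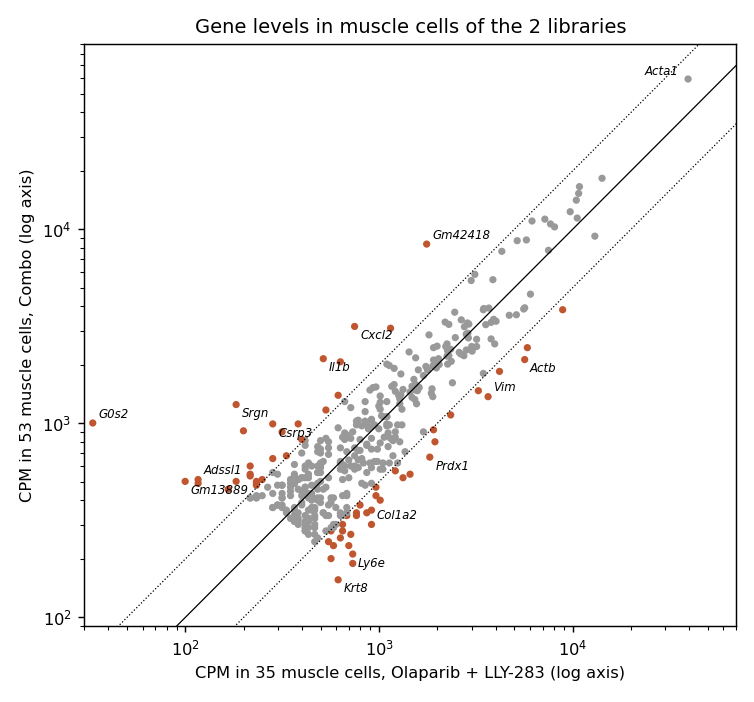
CPM of 414 genes in the 53 Combo muscle cells against the 35 Olaparib + LLY-283 muscle cells (both log axes). The solid line marks equal levels, dotted lines 2-fold, and colored points the 63 genes past it. Gm42418 and G0s2 lie above the upper line and Krt8 and Ly6e below the lower line, while Acta1 lies within 2-fold.

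The genes that the treatments act on were at few UMIs in muscle cells. Prmt5 had 1 and 4 UMIs, Parp1 2 and 2, and Cd274, which encodes the ligand of PD-1, 0 and 1, and Pdcd1 was at 0. With Wdr77 and Parp2, these genes summed to 116 CPM [46.7 to 239] and 123 [61.2 to 219], against 169 and 197 in other cells. All 7 of the Olaparib + LLY-283 UMIs were in the 5 cells under 2%. The 12 interferon genes summed to 548 CPM [377 to 769] and 479 [347 to 645], against 1050 and 1210 in other cells, and the 2 muscle levels differ by less than their counting error. The 6 class I genes summed to 3536 [3077 to 4044] and 2016 [1733 to 2332] CPM, against 5965 and 6057, and H2-K1 was the gene past 2-fold, at -1.02. Without the 5 Olaparib + LLY-283 cells under 2%, the class I sum there was 2264 CPM [1795 to 2817], whose interval overlaps that of the Combo cells. Of the p53 targets, Cdkn1a differed by 1.27, from 216 to 535 CPM, with 41.7% of its Combo UMIs in 1 cell. The difference was 0.86 without the top cell of each library and 0.73 without the 5 Olaparib + LLY-283 cells under 2%, both under 2-fold. It was 1.07 without the muscle cells in which neutrophil genes passed 1% of UMIs.

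Depth set what could be compared within single cells. Over the 18 selecting and fast genes, the share of cells with a UMI differed by a mean of -1.59 percentage points, Combo minus Olaparib + LLY-283, after thinning to 500 UMIs. Thinned to 1000 UMIs, which 20 and 27 cells reached, the mean difference was 3.79. The thinned share with a Myh4 UMI was 59.1% and 46.4%, and that with Acta1 99.5% and 100.0%, again not whole numbers of cells. In other cells of the libraries the share with Acta1 was 0.610% and 1.58%.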

How the data were processed

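The authors deposited 1 table of raw UMI counts per gene and barcode for each of 2 libraries, made with Cell Ranger from 3′ single-cell libraries on mm10. The files name Cell Ranger 6.1.2, and the submitters' processing notes also list Seurat 4.1.0. All 55450 gene rows are in GENCODE M21 and were not reduced to protein-coding genes. Where a symbol stood on several rows (108 symbols), the row with most UMIs was used. Cells were filtered and chosen by the rule in the text. UMIs were summed over the chosen cells of a library and scaled to CPM, with exact Poisson intervals, and shares have exact Clopper-Pearson intervals. No test was run, since each group is 1 library. Doublets were scored with Scrublet in scanpy 1.11.5 and kept. The members and gene lists were chosen with earlier results of these data known. Genes named come from the lists of muscle genes, of other cell types and of treatment-linked genes, and from the 20 highest ratios over other cells. Others come from the 10 highest and 10 lowest ratios between libraries and, as stated, some were chosen after their values were seen. The ratio between libraries was tested on simulated counts in which all cells of a library shared 1 profile. Mixed cells were not simulated. The known shift in composition was added back there, which was not done for the real counts.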

Additional observations from a re-analysis of the deposited data

Results flagged for a closer look

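The limit on mitochondrial UMIs left out 2 Combo barcodes that met the muscle rule. They are outside the comparisons and were listed because they carry the muscle signal in data the report does not use. Their mitochondrial shares were 22.2% and 31.1%, their muscle gene shares lay between 3.16% and 8.06%, and they held 930 and 1360 UMIs at the lower and upper end. No such barcode was left out of the Olaparib + LLY-283 library. Left-out Combo barcodes of all kinds held 377 UMIs of the 6 muscle genes, 16 of them of Myh4.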

How the results depend on the processing

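No paired analysis was possible because each group is 1 library, and no replicate could be left out. Of 176 alternative values, 144 moved by less than their spread or by under 1.5 times. With 500 or more genes per cell, the numbers of muscle cells were 20 and 29, their median UMIs 1584 and 1724, and the Olaparib + LLY-283 ratio of median UMIs 0.201. At a threshold of 10%, the Combo cells numbered 28, with a mitochondrial median of 0.565% and a ratio to other cells of 0.471, and in the Olaparib + LLY-283 cells these went from 0.828% to 0.367% and from 0.745 to 0.33. Without the mitochondrial limit the Combo ratio of median UMIs was 0.276, with the muscle median unchanged at 1045. By the mean of the cells' own shares Myh4 was 84.2% and 87.2%. Without a minimum of UMIs, 376 genes were 4-fold or more above other cells in both libraries, in place of 116 of 1006. The added genes had under 20 UMIs and their number tested is not given, so the counts are not on 1 footing.

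The genes higher and lower in Combo muscle cells (28 and 35 of 414 tested) depended on the choice of cells. The number of genes tested changed as well, so the counts are not on 1 footing. They were 67 and 112 of 580 at a threshold of 0.5% and 14 and 5 of 331 at 2%. The latter are also the counts without the cells under 2%. They were 8 and 4 of 282 at 5%, and 2 and 5 of 205 at 10%. Without called doublets they were 16 and 7 of 343. They were 76 and 125 of 1006 at 20 UMIs, and 11 and 14 of 216 at 100 UMIs. By the mean of the cells' own shares they were 16 and 10 of 414, and 19 of 384 were lower with 4 selecting genes. The higher genes were 44.4% of those past 2-fold, but 73.7% at the 2% threshold. They were 37.4% at 0.5%, 28.6% at 10% and 33.9% without the cells over 1% of neutrophil genes, so the share moved both ways. The mean thinned difference reversed, from -1.59 to 3.79, at 1000 UMIs, and the cause was not tested. Depth limits these values: many genes rest on fewer than 100 UMIs.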
